A study of Homo sapiens with 6 samples.

Results

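The deubiquitinases are the enzymes that take ubiquitin off proteins. They were described here in U251 cells, a human glioma line, that stably overexpressed PARK2 or GFP. Members were all genes with a probe set of their own whose platform symbol is USP with a number, begins with OTUB or OTUD, or is UCHL3, UCHL5, BAP1, ATXN3, JOSD1, JOSD2, CYLD, STAMBP or BRCC3, with USP9Y left out. The rule found 63 of the 19775 genes named on the array, measured by 187 probe sets. Of these genes, 62 code for proteins of deubiquitinase families, and OTUD6B-AS1 is an antisense RNA gene that the letters of the rule take in and that codes for no enzyme. BAP1 and USP15 had no probe set with a single symbol and are not analysed here.

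Ubiquitin is joined to a lysine of a target protein, singly or as a chain, and the chain can send the protein to the proteasome, to the lysosome or into a signalling complex. Deubiquitinases cut these bonds, and the ubiquitin-specific proteases are their largest family, beside the OTU, UCH, Josephin and JAMM families. PARK2 codes for parkin, a ubiquitin ligase that marks damaged mitochondria, and several deubiquitinases, USP30 and USP8 among them, are known to remove the chains it builds or ubiquitin from parkin itself.

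RNA was measured on 6 Affymetrix arrays, 3 of the PARK2 line and 3 of the control line with GFP. Cells of both groups had been infected with virus in polybrene and selected with puromycin, so the groups share the infection and the selection and differ in the transgene. Within a group the samples are labelled as biological replicates, and nothing states that each had its own culture or infection, so the p-values reflect only how far these samples differ, and that spread could be technical. The promoter of the transgene and the number of clones behind each line are not given in the sources used here, and no check of the transgene is given.

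The values are intensities, the brightness of a probe set on a linear scale. They were compared as log2(value + 16), PARK2 minus control, with limma, and a gene is called higher or lower, or said to have risen or fallen, at an adjusted p under 0.05 over 13720 tested genes. Array medians ran from 16.2 to 19.3 units, and log2 values correlated at 0.984 to 0.988 within groups and 0.969 to 0.973 between them. Actin signal at the 3′ end exceeded that at the 5′ end on every array, by ratios of 3.53 to 5.66. Replicate 1 had the highest actin ratio in both groups, 5.31 in control and 5.66 in PARK2. GAPDH ratios of the same kind ran from 1.02 to 1.17. What part RNA quality has in the results was not tested. Control replicate 1 had the highest trimmed mean, 168 units against 137 to 155 on the others. It was the highest control array for 51 of the 58 members tested, including 12 of the 13 lower ones described below. The same count was not made over all genes, so it is not known to be particular to the members. Of 9 glioma and astroglial markers 8 passed the filter on dim probe sets, with vimentin (VIM) at 8898 ± 444 in control and 8921 ± 523 in PARK2 arrays (SD, n = 3), while OLIG2 lay below it. In the same list S100B fell from 366 ± 119 to 125 ± 5.90 units (log2 fold change -1.39, adjusted p 9.3e-10), and GFAP (0.53, adjusted p 0.0107) and SOX2 (0.30, adjusted p 0.0378) rose. Summed epithelial markers ran from 219 to 316 units in control and from 134 to 144 in PARK2 arrays, with EPCAM, CDH1 and KRT5 below the filter and KRT18 lower. Summed fibroblast markers ran from 3548 to 4247 and from 5069 to 5942, with LUM below the filter and COL1A2 higher, and summed leukocyte markers from 18.3 to 29.6 and from 22.1 to 44.9, with PTPRC and AIF1 below it. The part of these shifts in the results below was not tested, and in such bulk RNA fewer cells of a type and less RNA per cell cannot be told apart.

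Of the 63 members 58 passed the filter and were tested, and 2 of them rose and 13 fell in PARK2 cells. Across all genes tested 13.3% rose, 15.6% fell and 28.8% were called in either direction, against 25.9% of the members. Without OTUD6B-AS1 it was 2 and 12 of 57. The higher members were USP40 and USP13, and the lower ones were OTUD6B-AS1, USP27X, USP9X, USP8, OTUD6B, USP46, OTUD5, USP3, USP4, USP11, OTUB1, USP39 and USP14. The median log2 fold change of the members was -0.03 against -0.003 over all genes, with 32 members below 0 and 26 above. The arrays of the groups did not overlap for 5 members with PARK2 higher and 16 with PARK2 lower, while 18.3% and 21.1% of all genes were separated in these directions. With the replicate number as a block 1 member was higher and 10 lower, against 1556 and 1897 of all genes. Quantile normalization between arrays gave 6 higher and 15 lower members and trimmed mean scaling 5 and 15, so that higher members made up 28.6% and 25.0% of the members' calls against 13.3% here. Array weights gave 16 and 17, or 48.5% higher. Over all genes the higher share of calls was 45.9% here, 50.9% with quantile normalization, 51.2% with trimmed mean scaling and 52.9% with array weights.

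**Figure D1:**
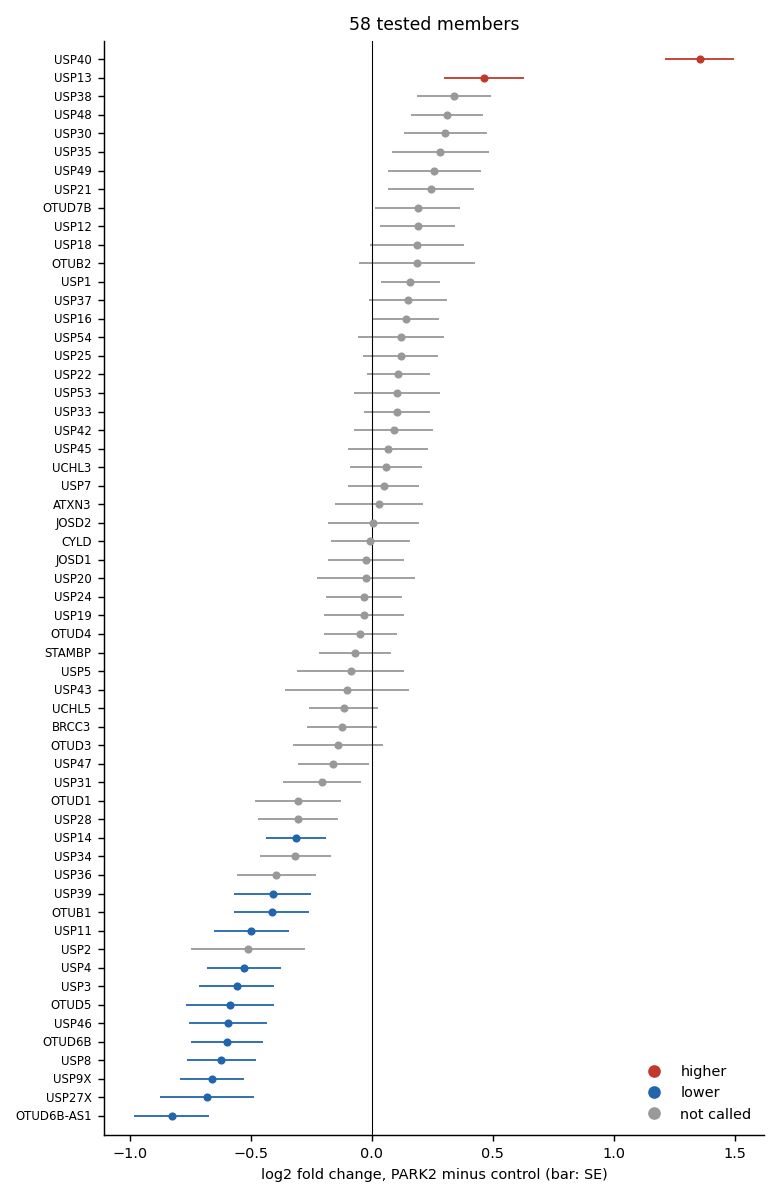
Log2 fold change (PARK2 minus control, horizontal axis) of the 58 tested members, ordered by value. Points are limma estimates, bars are 1 SE, and colours mark members called higher, lower or not called. USP40 stands at 1.36, apart from all other members, and the 13 lower members lie between -0.83 and -0.31.

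The other 5 members, USP51, USP44, OTUD7A, USP29 and USP26, did not pass the filter, whose floor corresponds to 9.87 units. Their highest values on any array were 9.98, 9.72, 14.1, 11.1 and 2.84 units. They were not tested, and no direction is given for them.

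USP40, a ubiquitin-specific protease, had the largest change of the members. It read 488, 469 and 449 units in control replicates 1 to 3 and 1143, 1240 and 1295 units in PARK2 replicates 1 to 3. All PARK2 arrays lay above all control arrays, and the means were 469 ± 19.4 and 1226 ± 76.8 (SD, n = 3). The log2 fold change was 1.36 (SE 0.14, 95% interval 1.07 to 1.64, adjusted p 4.0e-12), a 2.56-fold difference. Its second probe set rose as well, from 87.5 ± 35.6 to 216 ± 98.1 units (log2 fold change 1.12, adjusted p 0.0124 over all probe sets). USP40 was called higher under all 19 alternatives tried, with values from 1.24 to 1.41 on the log2 scale.

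USP13, which acts in the disposal of misfolded proteins of the endoplasmic reticulum, was the other higher member. It read 275, 352 and 280.5 units in control arrays and 298, 496 and 504 in PARK2 arrays. PARK2 replicate 1 lay among the control arrays, so the groups overlap. The log2 fold change was 0.46 (SE 0.17, adjusted p 0.0277), and the adjusted p was 0.0542 with the replicate number as a block. Its probe sets differed in size of change: one rose by 0.96 on the log2 scale, from 175 ± 23.0 to 353 ± 10.5 units, while the others, at 0.43 and 0.46, were not called over all probe sets. The call of the brightest one was lost without control replicate 1 (adjusted p 0.139), PARK2 replicate 2 (0.226) or PARK2 replicate 3 (0.228).

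**Figure D2:**
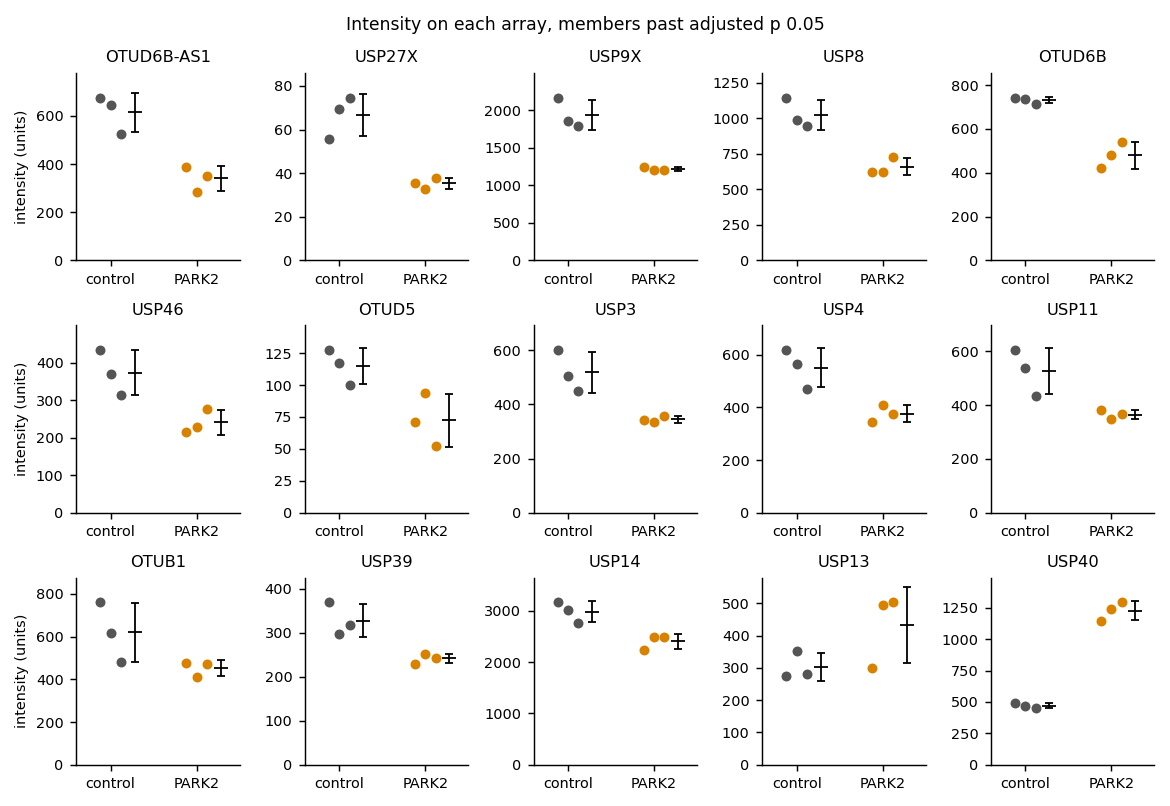
Intensity (units, linear axis from 0) on each array for the 15 members called higher or lower. Points are control (grey) and PARK2 (orange) arrays in replicate order, and the bar beside each group gives the mean and 1 SD (n = 3). The groups overlap for USP13 and for no other member shown.

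A set of deubiquitinases tied to parkin had been listed by name: USP30, USP35, USP15, USP8, USP33, USP13, USP14 and ATXN3. Of the 7 measured, 1 rose (USP13), 2 fell (USP8 and USP14) and 4 were not called, with a median log2 fold change of 0.10 against -0.003 over all genes, of which 13.3% rose and 15.6% fell. USP8, an endosomal enzyme that also removes ubiquitin from parkin, read 1144, 987 and 942 units in control and 624, 624 and 730 units in PARK2 arrays. The groups did not overlap, and USP8 fell from 1024 ± 106 to 659 ± 60.7 units (log2 fold change -0.62, SE 0.14, adjusted p 0.000462). Its second probe set fell by 0.81 on the log2 scale, from 247 ± 31.5 to 134 ± 10.0 units.

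USP14, an enzyme bound to the proteasome, read 3171, 3025 and 2764 units in control arrays and 2235, 2483 and 2490 units in PARK2 arrays. The groups did not overlap, and USP14 fell from 2987 ± 206 to 2403 ± 145 units (log2 fold change -0.31, SE 0.12, adjusted p 0.0492). The call lies at the threshold: with the block the adjusted p was 0.0521, without control replicate 2 it was 0.183, and without any 1 of the PARK2 arrays it ran from 0.123 to 0.217. The probe sets of USP14 stood at -0.31, -0.46 and -0.39, and none was called over all probe sets.

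USP30, which sits on the mitochondrial outer membrane and opposes parkin there, was not called. It read 120, 108 and 98.1 units in control and 134, 127 and 152 units in PARK2 arrays. The PARK2 arrays lay above the control arrays, but the log2 fold change of 0.30 (95% interval -0.04 to 0.65, adjusted p 0.192) did not pass, while it did under quantile normalization (0.0397), trimmed mean scaling (0.0336) and array weights (0.00473). USP35, another opponent of parkin, read 70.3, 38.0 and 37.7 units in control and 62.6, 50.6 and 70.3 in PARK2 arrays. Its groups overlap through control replicate 1, and its log2 fold change was 0.28 (adjusted p 0.321), and without that array it was 0.51 (adjusted p 0.0422). It was also called with array weights (0.48, adjusted p 0.000578) and after the neighbour correction (0.58, adjusted p 0.0251). USP33 stood at 0.10 (95% interval -0.17 to 0.37) and ATXN3, whose arrays ran from 72.0 to 90.2 units, at 0.03 (95% interval -0.33 to 0.39).

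The lower members of the ubiquitin-specific protease family with the lowest adjusted p were USP9X and USP8. USP9X, an X-linked enzyme with roles in cell survival and TGF-beta signalling, read 2167, 1862 and 1783 units in control and 1241, 1199 and 1203 in PARK2 arrays. The groups lay far apart relative to their spread, at 1937 ± 203 and 1214 ± 23.1 units (log2 fold change -0.66, SE 0.13, adjusted p 5.7e-05), and 2 of its 3 probe sets were lower. USP27X, a relative of USP22, fell from 66.6 ± 9.67 to 35.3 ± 2.52 units, a log2 fold change of -0.68 (SE 0.20, adjusted p 0.00496), in 1 of its 2 probe sets.

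Of the listed TGF-beta and Wnt deubiquitinases 3 of 4 measured fell and none rose, with a median of -0.51 on the log2 scale, while 15.6% of all genes fell and their median was -0.003. After the neighbour correction described below, USP9X (-0.09) and USP11 (0.03) were not called. USP4, which acts on the type I TGF-beta receptor, read 619, 566 and 471 units in control and 344, 409 and 376 units in PARK2 arrays. The groups did not overlap, with means of 552 ± 75.1 and 376 ± 32.3 units (log2 fold change -0.53, SE 0.15, adjusted p 0.00558). USP11, an enzyme of DNA repair and TGF-beta signalling, fell from 526 ± 86.4 to 365 ± 15.6 units (-0.50, SE 0.15, adjusted p 0.01), but its adjusted p was 0.0668 without control replicate 2 and 0.0737 without PARK2 replicate 2. USP34, the remaining measured gene of the list, stood at -0.32 (adjusted p 0.102).

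Of the 6 tested genes on the list of histone deubiquitinases 2 fell, USP3 and USP27X, and none rose, while 15.6% of all genes fell. MYSM1, from the list of other deubiquitinases and outside the naming rule, rose by 0.54 on the log2 scale (adjusted p 0.00631). USP3, which removes ubiquitin from histone H2A, read 602, 504 and 450 units in control and 342, 335 and 357 units in PARK2 arrays, a log2 fold change of -0.56 (SE 0.15, adjusted p 0.00338). The groups did not overlap, and its second probe set fell by 0.82 on the log2 scale. USP22, the enzyme of the SAGA complex, stood at 0.11 (95% interval -0.15 to 0.37). Of 8 enzymes of DNA repair 2 fell, USP11 and OTUB1, beside the same 15.6% of all genes, and USP7 (0.05), USP1 (0.16) and BRCC3 (-0.12) were not called.

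USP46 is a partner of the activating protein WDR48, as are its close relative USP12 and USP1. It read 434, 369 and 315 units in control and 216, 228 and 278 units in PARK2 arrays, and the groups did not overlap. USP46 fell from 373 ± 59.9 to 241 ± 32.6 units (log2 fold change -0.60, SE 0.16, adjusted p 0.00282), and another of its probe sets fell by 1.05 on the log2 scale, from 397 ± 8.94 to 183 ± 16.5 units. The call held under all 19 alternatives, with values from -0.73 to -0.48. USP12 stood at 0.19 and USP1 at 0.16, both with PARK2 arrays above control arrays and neither called. WDR48 itself fell, from 259 ± 81.4 to 136 ± 12.1 units (log2 fold change -0.82, adjusted p 0.000121).

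The OTU family had 8 tested members, of which 3 fell and none rose, while 15.6% of all genes fell and 13.3% rose. The calls of OTUD5 and OTUB1, given below, were lost under several alternatives. OTUD6B read 743, 737 and 714 units in control and 419, 480 and 542 units in PARK2 arrays. The groups did not overlap, and OTUD6B fell from 731 ± 15.03 to 480 ± 61.3 units (log2 fold change -0.60, SE 0.15, adjusted p 0.00112). OTUD6B-AS1, the antisense RNA gene beside it, fell from 615 ± 80.0 to 341 ± 52.9 units (-0.83, SE 0.16, adjusted p 1.9e-05), and its dimmer probe set fell by 0.58 on the log2 scale. Whether the probe sets of this pair read each other's transcripts was not tested.

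OTUD5, which acts on TRAF3 in the interferon response, fell from 115 ± 14.1 to 72.6 ± 20.8 units (log2 fold change -0.59, adjusted p 0.0109). It was at -0.23 (adjusted p 0.456) on the probe set used when those marked _x_at and _s_at, which may read other genes, were dropped. It also lost its call without control replicate 1 (-0.52, adjusted p 0.0605), PARK2 replicate 3 (-0.41, adjusted p 0.166) or the filter (adjusted p 0.0893). OTUB1, which blocks ubiquitin-conjugating enzymes as well as cutting chains, read 761, 614 and 481 units in control and 477, 410 and 474 units in PARK2 arrays. Its lowest control array lies next to its highest PARK2 array, and the log2 fold change of -0.41 (adjusted p 0.0366) had an adjusted p of 0.0791 with the block and of 0.0647 to 0.213 without control replicate 1 or 2 or any 1 of the PARK2 arrays. Without control replicate 1 its log2 fold change was -0.26. USP39, a splicing factor of the USP family without protease activity, fell by 0.41 on the log2 scale (327 ± 38.0 to 241 ± 11.0 units, adjusted p 0.0426, and 0.104 with the block). It lost its call without control replicate 2 (0.0753) or any 1 of the PARK2 arrays (0.111 to 0.144).

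No member of the Josephin (3 tested), UCH (2) or JAMM (2) families was called in the comparison as made here. This holds for the genes the rule takes, which are only part of the UCH and JAMM families. UCHL1, a UCH enzyme outside the rule, rose (log2 fold change 0.33, adjusted p 0.0191). After the neighbour correction it was at -0.12 (adjusted p 0.277). JAMM genes outside the rule were called in both directions and are given below. CYLD, a tumour suppressor that cuts chains in NF-kB signalling, stood at -0.01 (95% interval -0.33 to 0.32), and USP18, which removes the ubiquitin-like protein ISG15, at 0.19 (95% interval -0.20 to 0.58). UCHL5, an enzyme of the proteasome, stood at -0.12 (95% interval -0.40 to 0.17), and was called lower after the neighbour correction (-0.40, adjusted p 0.00257). These intervals reach the size of the smallest called change, so a missed threshold does not show equal levels. Not covered by the naming rule, and picked with their values known, USP2 (-0.51, adjusted p 0.0986), USP28 (-0.30, 0.176) and USP38 (0.34, 0.0915) had groups that did not overlap but were not called. The same held for USP34, given above. USP2 lies at the filter's floor of 9.87 units, with 20.9 ± 4.41 units in control and 9.87 ± 2.36 in PARK2 arrays. Its PARK2 replicates 2 and 3, at 9.39 and 7.80 units, lay below that floor.

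**Figure D3:**
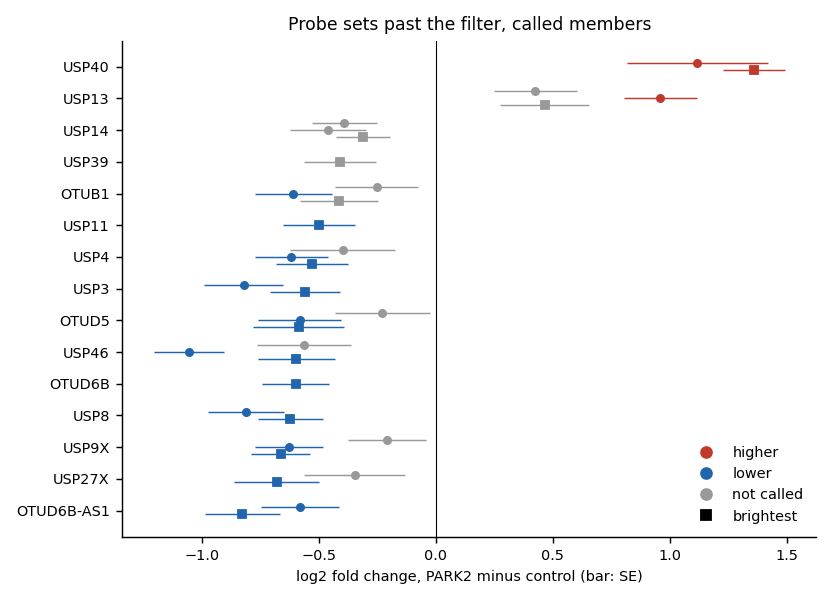
Log2 fold change (PARK2 minus control, horizontal axis) of every probe set past the filter for the 15 called members, tested over all probe sets. Squares are the brightest probe set of a gene, circles the others, bars 1 SE, and colours the call. All probe sets of a gene lie on the same side of 0, and the USP46 probe sets range from -1.05 to -0.56.

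Over the 152 member probe sets past the filter, 5 were higher and 20 lower, while 9.10% and 11.3% of all 26603 named probe sets were. Of the 44 members with several such probe sets, 0 had calls in both directions. In 6 members the brightest probe set was not called in this test but another was. These were BRCC3 (-0.45), OTUB1 (-0.61) and USP36 (-0.61), lower, and USP13 (0.96), USP21 (0.53) and USP48 (0.49), higher.

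Close relatives were compared within arrays, as the difference of their log2 values, in 6 pairs. The difference between USP12 and USP46 ran from -0.50 to -0.26 in control and from 0.31 to 0.51 in PARK2 arrays, a shift of 0.79. That between USP22 and USP27X shifted by 0.79, that between USP25 and USP28 by 0.43, and that between USP5 and USP13 by -0.55, each without overlap of the groups. For these 4 pairs the two-sided exact permutation p was 0.1, the smallest that 3 arrays against 3 can give, and 0.15 adjusted over the 6 pairs. USP4 and USP11 shifted by -0.03 against each other (exact permutation p 0.8) and USP20 and USP33 by -0.13 (exact permutation p 0.5). These are shifts in a difference, and the levels of different probe sets were not set against each other.

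Many of the lower members lay among lower genes. For each member the 20 tested genes on each side in gene order were taken where the chromosome held them. Of the 13 lower members 11 had a negative median among these neighbours, and USP46 (0.07) and USP14 (0.00) did not. USP14 had only 20 neighbours in all. On its chromosome, 18, 93 of the 198 non-member genes tested were lower (47.0%), with a median of -0.38 on the log2 scale. Of 28 tested members with a neighbour median below 0, 11 were lower, and of the 30 at or above 0, 2 were. At a second threshold of -0.2 it was 11 of 19, and both thresholds were chosen after the values were seen. The share of all genes called lower at such neighbour medians was not computed. Whether these counts are particular to the members is therefore not known. Members that lie close together share neighbours and can count among each other's, so they are not separate observations. For USP9X the neighbour median was -0.54, with 24 of 40 neighbours lower and 2 higher, and for USP8 it was -0.48, with 25 lower and 2 higher. USP40 rose among neighbours with a median of 0.08, and USP13 among neighbours with one of 0.47, of which 25 of 40 were higher.

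On the X chromosome 4 of 5 tested members fell, USP9X, USP11, OTUD5 and USP27X. In the stretch from USP9X to USP27X, which holds them, 29 of the 57 other tested genes were lower and 0 higher, while 25.5% of the 466 non-member genes tested on the whole X chromosome were lower. USP8 and USP3 lie on chromosome 15, where 33 of the 57 other tested genes between them were lower and 2 higher, and 48.6% of the 438 non-member genes tested on the whole chromosome were lower. After the median deviation of the neighbours was removed from each array, a step added after seeing the data, 4 of the 13 lower members were still lower: OTUD6B-AS1 (-0.37), USP46 (-0.73), USP4 (-0.29) and USP14 (-0.31). USP40 was still higher at 1.25 on the log2 scale. USP13 stood at 0.01 (adjusted p 0.969), USP9X at -0.09, USP8 at -0.15, USP3 at -0.09 and USP11 at 0.03, on the other side of 0. In all 5 of the 58 tested members were higher and 8 lower after this step, against 2014 and 1975 of all 13720 genes tested. The added calls were STAMBP (0.31), USP35 (0.58), USP48 (0.32) and USP54 (0.48), higher, and BRCC3 (-0.25), OTUD1 (-0.48), OTUD4 (-0.33) and UCHL5 (-0.40), lower. What part the shift of the neighbours has in the changes of the members was not tested.

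**Figure D4:**
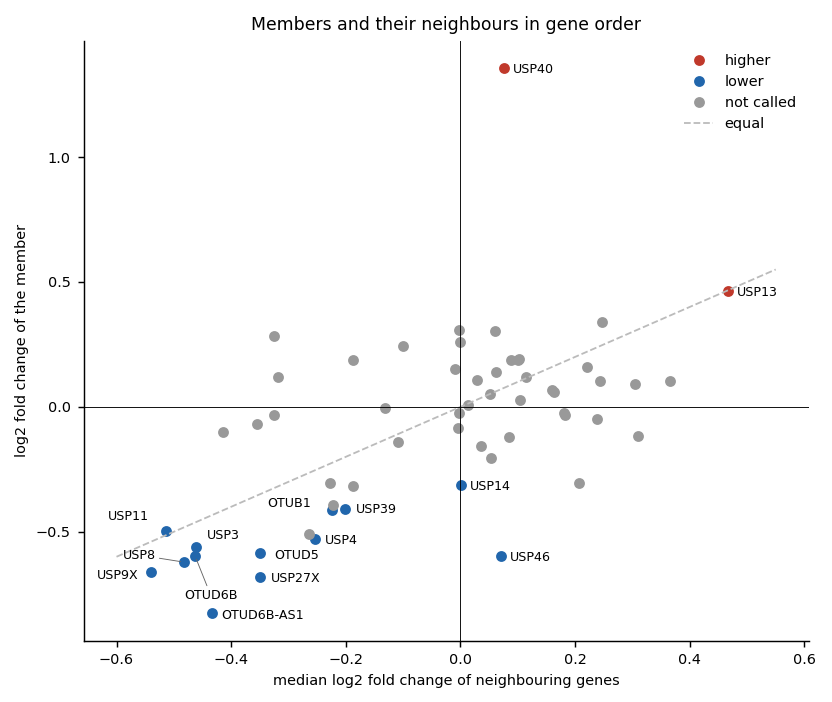
Log2 fold change of each tested member (vertical axis) against the median log2 fold change of its neighbours in gene order (horizontal axis). Colours mark the call, and the dashed line marks equal values. USP40 and USP46 lie far from the line, while USP13, at 0.46 with a neighbour median of 0.47, lies on it.

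Genes of the same pathway outside the rule were taken from lists made by name. A list of other deubiquitinases and proteins of related fold, some of which act on other targets or lack activity, had 22 tested genes. Of these 5 rose (22.7%) and 4 fell (18.2%), against 13.3% and 15.6% of all genes, with a median of 0.01 on the log2 scale. USPL1, a SUMO protease of USP-like fold, rose from 116 ± 9.52 to 192 ± 22.9 units (log2 fold change 0.66, adjusted p 0.00144), and STAMBPL1, an endosomal JAMM enzyme, from 543 ± 22.03 to 812 ± 22.1 units (0.57, adjusted p 0.00157). ZUP1, which cuts long lysine-linked chains, rose by 0.55 on the log2 scale, and MPND, a JAMM-domain protein, fell from 107 ± 26.5 to 57.9 ± 10.7 units (-0.72, adjusted p 0.0021). None of these overlapped between groups. The other called genes of this list were UCHL1 (0.33) and MYSM1 (0.54), higher, and TNFAIP3 (-0.50), EIF3H (-0.44) and PRPF8 (-0.44), lower. Of 24 cofactors of deubiquitinases 1 rose (4.17%) and 6 fell (25.0%). ENY2, a subunit of the SAGA deubiquitinase module, fell from 2516 ± 361 to 1555 ± 70.8 units (log2 fold change -0.68, adjusted p 2.7e-05), NFRKB fell by 0.61 and BABAM2, of the complex that holds BRCC3, by 0.57 on the log2 scale. STAM, UBXN1 and ATXN7 were not called with the block (adjusted p 0.0501, 0.0958 and 0.0715). Of the ubiquitin genes UBB, at -0.05 (adjusted p 0.791), was tested.

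Promoter sequences are shown for the largest change and for lower members that differ in position and in what the neighbours did, so that the stretches upstream of these genes can be read side by side. They are the 250 bases before the start of each gene, 5′ to 3′ on the gene's strand, from RefSeq on GRCh38.p14, and 47 of the 63 members matched that table. The intervals are chr2:233566783-233567032 (minus strand) for USP40, chr4:52659302-52659551 (minus) for USP46, chr3:49340054-49340303 (minus) for USP4, chr15:50424155-50424404 (plus) for USP8 and chrX:47232759-47233008 (plus) for USP11. Capitals mark matches, on either strand, to motifs searched in all promoters, and matches of different motifs may overlap.
USP40: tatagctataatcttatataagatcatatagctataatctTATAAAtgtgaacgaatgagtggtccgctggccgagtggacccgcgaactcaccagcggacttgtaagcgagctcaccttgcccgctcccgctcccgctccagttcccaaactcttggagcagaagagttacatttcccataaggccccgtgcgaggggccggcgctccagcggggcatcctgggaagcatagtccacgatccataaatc
USP46: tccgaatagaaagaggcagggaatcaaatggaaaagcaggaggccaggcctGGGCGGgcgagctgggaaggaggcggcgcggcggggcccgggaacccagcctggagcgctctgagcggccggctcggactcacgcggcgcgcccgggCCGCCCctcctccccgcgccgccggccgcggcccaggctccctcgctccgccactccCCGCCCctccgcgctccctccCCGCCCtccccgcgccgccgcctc
USP4: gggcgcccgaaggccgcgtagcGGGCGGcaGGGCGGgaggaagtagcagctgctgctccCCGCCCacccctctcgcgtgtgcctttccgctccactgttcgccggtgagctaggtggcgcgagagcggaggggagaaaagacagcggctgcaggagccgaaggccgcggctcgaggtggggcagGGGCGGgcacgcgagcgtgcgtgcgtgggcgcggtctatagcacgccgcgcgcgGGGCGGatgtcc
USP8: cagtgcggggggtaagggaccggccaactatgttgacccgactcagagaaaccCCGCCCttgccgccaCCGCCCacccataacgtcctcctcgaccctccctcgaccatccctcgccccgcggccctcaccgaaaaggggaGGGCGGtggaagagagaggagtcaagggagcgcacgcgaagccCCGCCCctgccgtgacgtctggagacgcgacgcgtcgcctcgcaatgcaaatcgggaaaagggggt
USP11: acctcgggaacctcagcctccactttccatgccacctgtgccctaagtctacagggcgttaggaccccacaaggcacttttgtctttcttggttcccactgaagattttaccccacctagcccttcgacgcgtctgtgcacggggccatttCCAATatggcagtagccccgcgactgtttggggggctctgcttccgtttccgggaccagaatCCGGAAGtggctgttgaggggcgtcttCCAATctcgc
The capitals are a TATA box match (TATAAA) in USP40, GC box matches of the SP1 kind (GGGCGG and its reverse complement) in USP46, USP4 and USP8, and matches to the ETS motif (CCGGAAG) and the NFY motif (CCAAT) in USP11.

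The motif of the SP1 kind was found in 36 of the 47 member promoters (76.6%), against 42.6% of all 35116 promoters of the same length. The ETS motif was found in 11 (23.4% against 8.52%), the NFY motif in 14 (29.8% against 32.0%) and the TATA box in 2, USP16 and USP40 (4.26% against 10.7%). The motifs of NRF1 (GCATGCGC) and the E-box (CACGTG) were each found in 4 member promoters, that of YY1 (AAGATGG) in 2 and the CRE (TGACGTCA) in 0. Member promoters had a median GC content of 69.2% and an observed-over-expected CpG ratio of 0.867, against 58.0% and 0.558 for all promoters. Among the 10 lower members with a promoter 9 held the SP1 motif and 4 the ETS motif, and among 34 members not called 26 and 7 did. These are matches of letters in a window and not measured binding sites. The shares were not computed for the promoters of the tested genes alone. Whether the differences from all promoters are particular to deubiquitinases is therefore not known.

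**Figure D5:**
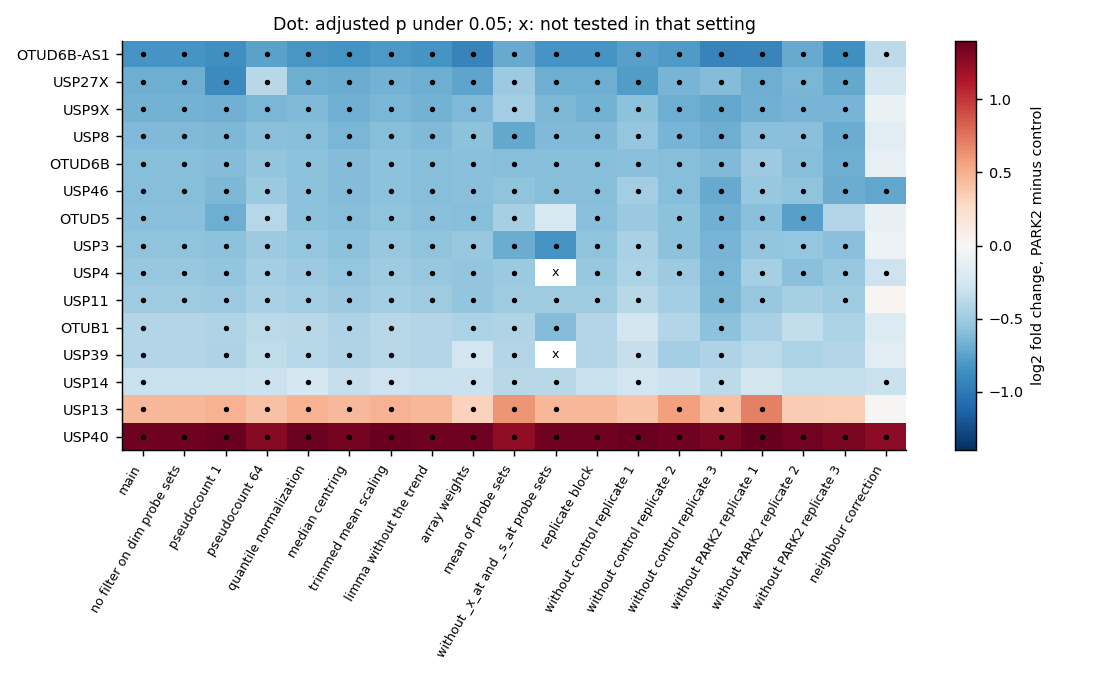
Log2 fold change (colour, PARK2 minus control) of the 15 called members under each way of processing the arrays. A dot marks an adjusted p under 0.05, and an x a setting without a value. USP40, USP46 and OTUD6B-AS1 have a dot in every column, while USP14, USP39, OTUB1 and USP13 lose theirs in several.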

How the data were processed

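RNA of 3 control and 3 PARK2 samples of U251 cells was measured on 1-colour arrays. The authors deposited 1 linear intensity per probe set and array. Per the submitters' processing notes GCOS and MAS5 were used, with no version stated, and how the arrays were scaled is not given in the sources used here. Of 54675 probe sets 41091 had 1 symbol in GEO's platform annotation, 1801 had several, 11721 had none and 62 were controls, and only the first were used.

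Intensities were turned into log2(value + 16) with no further normalization. Probe sets under the 40th percentile of the mean log2 value were dropped (floor 9.87 units), and each gene was given by its brightest probe set, which left 13720 genes. Fold changes on this scale understate the change of dim genes. Groups were compared with limma 3.58.1 in R 4.3.3, letting the variance depend on intensity, and p-values were adjusted by Benjamini-Hochberg over all genes tested, with a threshold of 0.05. The variance model had 60.8 prior against 4 residual degrees of freedom (10.5 without the trend), so small p-values lean on the model. The number of arrays limits the precision.

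Arrays with the same number departed from their group means in the same direction (r over 32768 probe sets of 0.379, 0.159 and 0.121, and other pairs from -0.270 to 0.161). The labels state no pairing, and this sign of it is weak, since a pair of unlike number reached 0.161. The arrays of replicate 1, with the highest r, also had the highest actin ratios, 5.31 in control and 5.66 in PARK2. Whether that has a part in their correlation was not tested. The main fit has no block, and the replicate number was added as a block in an alternative fit. Over the 13720 genes tested the same correlations were 0.168, 0.045 and 0.065, and other pairs ran from -0.122 to 0.069. Values with the replicate number as a block stand beside the results whose call they change.

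Genes were named by rule: members past the threshold with groups that did not overlap, a list of 17 genes named one by one, and up to 4 called genes with the largest change from each list of related genes. Other genes are named outside this rule, not always with a remark, and may have been picked with their values known. The members and lists were chosen with earlier results of these data known. RefSeq's gene table (GRCh38.p14) was used for gene order only, and RefSeq's promoter table for sequences. Alternatives covered the filter, pseudocounts of 1 and 64, 3 scalings of the arrays, a variance model without the trend, weights per array, other choices of probe set, a stricter threshold, the block and each array left out.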

Additional observations from a re-analysis of the deposited data

How the results depend on the processing

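Against 2 higher and 13 lower deubiquitinases, the higher count was 1 without the filter, without the variance trend, with the replicate block and at an adjusted p of 0.01, 6 with quantile normalization, 5 with trimmed mean scaling, 16 with array weights, 5 after the neighbour correction (chosen after seeing the data) and 1 to 4 with each array left out. The lower count was 8 after the neighbour correction and 8 at an adjusted p of 0.01, against 1975 and 1481 of all genes. It was 9 without the filter, 10 with the block, 10 without the probe sets marked _x_at and _s_at and 11 without the variance trend. With quantile normalization, median centring and trimmed mean scaling it was 15, and with array weights 17. With each array left out it ran from 9 to 14, and that of all genes from 1540 to 2629. Over all genes 4322 were higher and 3854 lower with array weights, a fit whose convergence limit limma reported as not reached, and 1225 to 2799 were higher with each array left out, the highest without control replicate 1. At the stricter threshold the cause is the threshold itself, and for the other changes the cause was not tested. Some values near 0 changed sign. CYLD was at 0.007 with quantile normalization, 0.021 with trimmed mean scaling, 0.125 with array weights, 0.175 after the neighbour correction and from -0.085 to 0.139 with each array left out. With probe sets averaged ATXN3 was at -0.065, and it was at -0.121 without the probe sets marked _x_at and _s_at, -0.025 after the neighbour correction and from -0.06 to 0.075 with each array left out. UCHL5 was at 0.035 with probe sets averaged and 0.424 without the marked ones, but at -0.396 after the neighbour correction (adjusted p 0.00257), and USP7 ran from -0.015 to 0.143 with each array left out. After the neighbour correction USP11 was at 0.029, USP33 at -0.162, USP1 at -0.034 and USP22 at -0.013. The block changed the calls of USP13, OTUB1, USP39 and USP14 among the members and of STAM, UBXN1 and ATXN7 among the cofactors. USP40, USP46 and OTUD6B-AS1 kept their calls under all 19 alternatives. No scaling moved the median of all genes by over 0.1 on the log2 scale. Of 63 members 5 lay under the filter and have no test.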
